A study of Homo sapiens with 4 samples.

Results

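The protein-coding messages of the cytosolic large (60S) ribosomal subunit were followed in polyribosome-bound RNA and in input RNA. The set holds 45 genes, chosen by gene name, from RPL3 to RPL41 together with RPLP0, RPLP1 and RPLP2. All 45 were found among the 17064 rows of the deposited table, and all 45 passed the filter for expressed genes, a 4-library average of 5 FPKM or more, which left 7379 genes. FPKM counts fragments per length of transcript and per size of the mapped library, a level that can be compared between genes only as far as the transcript length used by the authors is right.

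The 60S subunit holds the peptidyl transferase centre, the tunnel through which the growing chain leaves, and a stalk that recruits the elongation factors. Most of its proteins are made in roughly equal amounts, are imported into the nucleolus, and are built onto ribosomal RNA there. Their messages are the classic TOP messages, which begin with a C and a run of pyrimidines (terminal oligopyrimidine tract), and their entry into polyribosomes is switched as a group by mTOR signalling and the cap-binding protein LARP1. These messages are short and abundant, and many of the genes carry small nucleolar RNAs in their introns and have scattered processed pseudogenes.

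The cells were labelled KYSE-150, a line grown from a squamous carcinoma of the esophagus. The groups were knockdown-labelled polyribosome RNA, knockdown-labelled input RNA, control polyribosome RNA and control input RNA, with 1 library each. Knockdown-labelled cells carried a stable short hairpin RNA against NSUN6, an RNA cytosine methyltransferase, and control cells had normal NSUN6. The labels do not say how many hairpins or clones were used. Both kinds of cells were given cycloheximide at 100 µg/ml, which holds ribosomes on their messages. Input was 10% of the lysate, and the rest went through a 30% sucrose cushion. Material that sediments through such a cushion is called polyribosome RNA here, as in the labels. With 1 library a group there was no replicate check, so no difference below has a test, an error or a p-value.

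Facts about the libraries bear on every comparison. A second line of names at the foot of the table calls the last pair of columns an input and a polyribosome library of K30 cells with a hairpin against Mettl1, in the opposite fraction order to the header, and the control columns K150 with a hairpin against GFP. The header was followed, and the medians, 2-fold counts and efficiency changes of the members were also computed after exchanging the knockdown-labelled fractions. NSUN6 was at 0.38 FPKM in knockdown-labelled polyribosome RNA and 3.83 FPKM in its input, against 10.13 and 8.85 FPKM in the control fractions. METTL1 was at 8.32 and 5.98 FPKM in knockdown-labelled polyribosome and input RNA, against 14.32 and 13.02 FPKM in control. All 9 epithelial markers were above 0 in every library, with summed levels of 5481 to 6791 FPKM in knockdown-labelled cells and 4237 to 5616 FPKM in control cells. The squamous keratin KRT5 was at 0.70 and 0.45 FPKM in knockdown-labelled polyribosome and input RNA, against 1162 and 906 FPKM in control, while KRT19 was at 1973 and 1488 FPKM against 1.02 and 0.07 FPKM. Of 18 markers of fibroblast, endothelial, immune and blood cells 17 were in the table, with sums of 12.0 to 12.6 FPKM in knockdown-labelled cells and 75.5 to 77.1 FPKM in control cells. CD68 made up the difference, at 6.38 and 5.90 FPKM in knockdown-labelled polyribosome and input RNA, against 69.33 and 71.23 FPKM in control, and the other 16 markers summed to 5.83 to 6.22 FPKM in every library. Knockdown, a different origin of the cells and the library itself therefore cannot be told apart in any difference given below.

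Start sequences were read to show what the members share, and to let the members with the largest changes be compared with each other. RefSeq start windows on GRCh38.p14 were found for 38 of the 45 members. No window was found for RPL5, RPL7, RPL8, RPL23, RPL23A, RPL30 or RPL37. Each line below holds 15 bases before the listed start and 15 bases from it on, 5′ to 3′ on the strand of the gene, with the pyrimidine run from the start in capitals where it begins with C. RPLP1 lies at chr15:69452803-69452832 on the plus strand, RPL41 at chr12:56116618-56116647 (plus), RPL37A at chr2:216498829-216498858 (plus), RPL12 at chr9:127451392-127451421 (minus) and RPLP0 at chr12:120201097-120201126 (minus). These are the 5 members with the largest positive efficiency change. RPL14 lies at chr3:40457324-40457353 (plus), RPL6 at chr12:112409271-112409300 (minus) and RPL22 at chr1:6199581-6199610 (minus), and they are among the 5 members with the largest negative change. RPL11 lies at chr1:23691791-23691820 (plus) and is shown as a 5S-binding protein.
RPLP1: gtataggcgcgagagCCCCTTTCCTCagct
RPL41: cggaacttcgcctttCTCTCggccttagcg
RPL37A: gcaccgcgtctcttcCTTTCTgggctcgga
RPL12: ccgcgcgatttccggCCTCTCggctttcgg
RPLP0: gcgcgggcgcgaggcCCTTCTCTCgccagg
RPL14: gggcgggtcttcttcCTTCTCgcctaacgc
RPL22: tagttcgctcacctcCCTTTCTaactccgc
RPL11: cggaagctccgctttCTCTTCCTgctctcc
RPL6: ggggagacggcgcgtgcactgtgttcctgg
The 5 higher members shown had runs of 5 to 11 pyrimidines, RPL14, RPL22 and RPL11 had runs of 6, 7 and 8, and RPL6 had no C at its listed start.

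The 45 messages took up a large part of every library. Their FPKM summed to 84641 in knockdown-labelled polyribosome RNA (13.5% of that library's FPKM) and 56322 in its input (10.5%), against 61827 (10.9%) in control polyribosome RNA and 79428 (13.7%) in control input. With the columns as in the header, the share was thus higher on polyribosomes than in input in knockdown-labelled cells and lower in control cells. With the fractions exchanged it was lower on polyribosomes in both, at 10.5% against 13.5% in knockdown-labelled cells. Since FPKM is relative to the library, fewer cells with a message and less message per cell cannot be told apart. The median member stood at 1286 and 1072 FPKM in knockdown-labelled polyribosome and input RNA, against 1329 and 1513 FPKM in control. The highest member was RPL35 in both knockdown-labelled libraries, at 7172 and 3647 FPKM, and RPL41 in both control libraries, at 3281 and 6309 FPKM. RPL35 contacts factors at the exit of the tunnel, and RPL41 is a very short peptide, with a coding sequence of 75 bases, that reaches towards the small subunit. The lowest members by mean level were RPL22 and RPL27A.

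**Figure D1:**
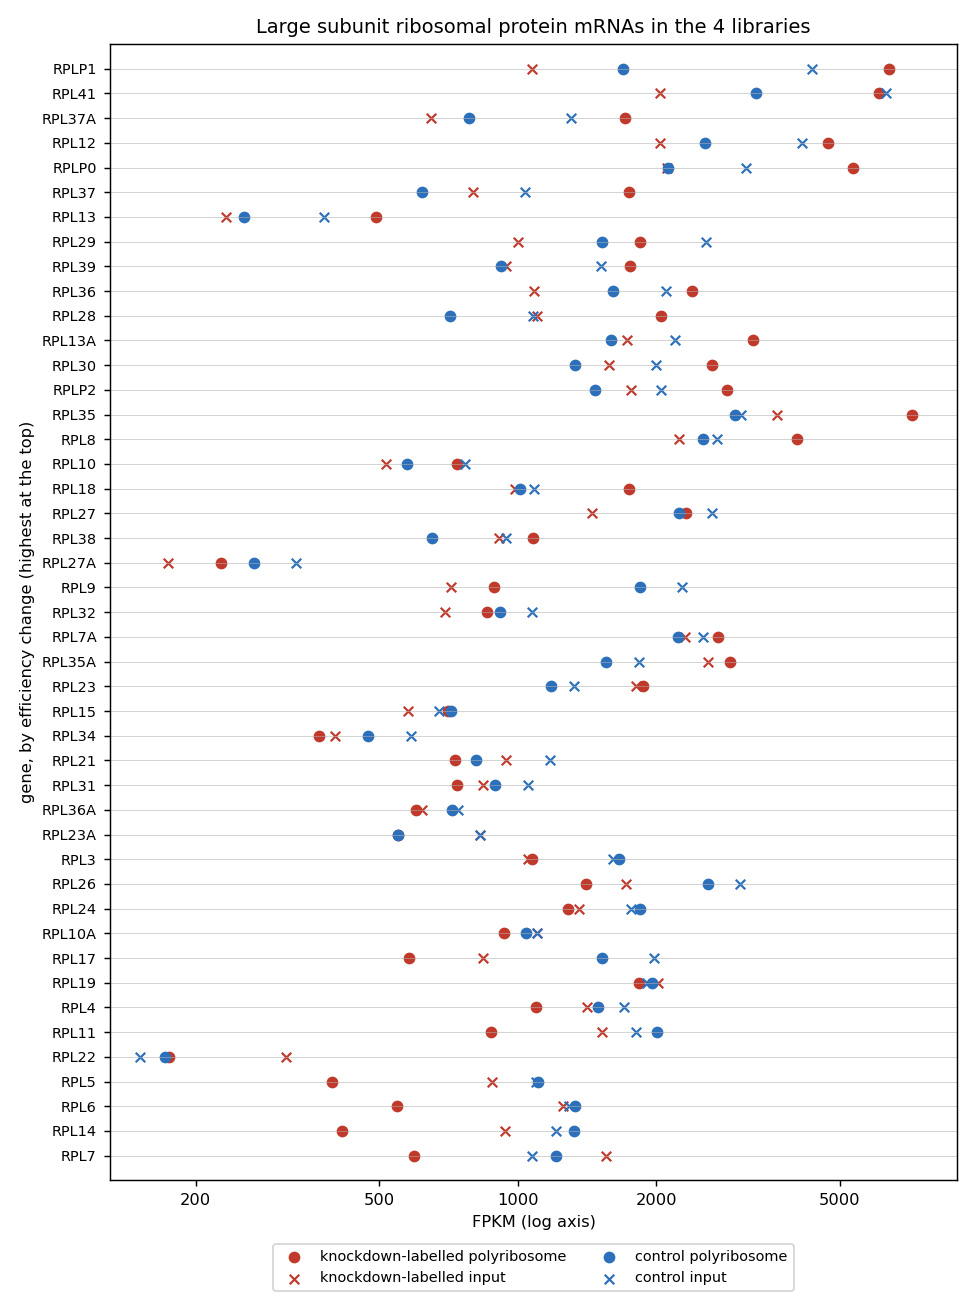
Level of each of the 45 genes in FPKM on a log axis, with genes down the page by efficiency change. Filled circles are polyribosome RNA, crosses are input, red is knockdown-labelled and blue is control. RPLP1 at the top has its highest value on knockdown-labelled polyribosomes (6379 FPKM) and its lowest in the knockdown-labelled input (1072 FPKM), and RPL14 and RPL7 at the foot have their lowest values on knockdown-labelled polyribosomes.

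Translation efficiency was taken as the log2 of polyribosome over input level, each plus 1 FPKM, and its change as knockdown-labelled minus control. The median change of the 45 members was 0.54, against -0.12 over all 7379 genes. It was -0.07 with the knockdown-labelled fractions exchanged, against -0.05 over all genes. After a trend on GC content and length was removed it was 0.23, against -0.41 over all genes. A value of 0 is therefore not that of the typical gene after trend removal. A change of at least 2-fold upward was seen in 15 members (33.3%), against a background of 12% of all genes. At least 2-fold lower were 5 members (11.1%), against a background of 30.1%. Those 5 were RPL7, RPL14, RPL6, RPL5 and RPL22. The members thus did not behave as 1 block, and the range ran from -1.56 for RPL7 to 3.93 for RPLP1. Just inside the 2-fold limit were RPL35 at 1.02 and RPL22 at -1.02, and just outside it were RPL8 at 0.94 and RPL11 at -0.96.

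All 4 proteins of the stalk region had higher efficiency in knockdown-labelled cells than in control cells by at least 2-fold, beside 12% of all genes. Their median change was 1.91. All 4 had changes below 0 with the fractions exchanged, from -1.21 to -0.22. RPLP2 was also below 0, at -0.56, after the GC and length trend was removed, where the median of all genes was -0.41. RPLP0 is the base of the stalk and carries dimers of RPLP1 and RPLP2, whose tails bind the elongation GTPases. RPLP1 was at 6379 FPKM in knockdown-labelled polyribosome RNA and 1072 FPKM in its input, against 1695 and 4353 FPKM in control polyribosome and input RNA. Its log2 efficiency was 2.57 in knockdown-labelled cells and -1.36 in control cells. The authors' deposited table gives it a ratio of 5.93 in knockdown-labelled cells and 0.39 in control cells. RPLP1 thus had the largest efficiency change of the 45 members and was the only one below -1 in control cells. RPLP0 was at 5349 and 2109 FPKM in knockdown-labelled polyribosome and input RNA, against 2120 and 3121 FPKM in control, with a change of 1.90. RPLP2 was at 2841 and 1760 FPKM in knockdown-labelled cells, against 1473 and 2045 FPKM in control, and its change of 1.16 was the smallest of the stalk. RPL12, which sits at the stalk base beside the GTPase centre, was at 4707 and 2034 FPKM in knockdown-labelled cells, against 2547 and 4149 FPKM in control, a change of 1.91. In each of the 4 genes the highest polyribosome value was the knockdown-labelled one and the lower input value was also the knockdown-labelled one.

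The 5S-binding proteins went the other way. RPL5 and RPL11 carry the 5S ribosomal RNA into the subunit, and the free complex binds MDM2, the ubiquitin ligase of p53. RPL5 was at 396 FPKM in knockdown-labelled polyribosome RNA and 879 FPKM in its input, against 1105 and 1094 FPKM in the control fractions, a change of -1.16. RPL11 was at 873 and 1524 FPKM in knockdown-labelled cells, against 2007 and 1804 FPKM in control, a change of -0.96. For both, all the knockdown-labelled values lay below all the control values, and the polyribosome value was the lowest of the 4. With the fractions exchanged the changes were 1.13 for RPL5 and 0.65 for RPL11, and after the GC and length trend was removed they were -0.58 and -0.77.

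The proteins that reach across to the small subunit were split. RPL41 was at 6081 and 2033 FPKM in knockdown-labelled polyribosome and input RNA, against 3281 and 6309 FPKM in control, a change of 2.52. RPL30 was at 2643 and 1579 FPKM in knockdown-labelled cells, against 1332 and 1995 FPKM in control, a change of 1.33. Both had the pattern of the stalk genes, and both were below 0 with the fractions exchanged, at -0.64 and -0.16. RPL23, whose surface is also the docking site of the subunit-joining block EIF6, was at 1866 and 1809 FPKM in knockdown-labelled cells, against 1182 and 1323 FPKM in control. RPL24 was at 1286 and 1357 FPKM in knockdown-labelled cells, against 1843 and 1760 FPKM in control. These last genes differed between the cells in level rather than in the split between fractions, with RPL23 higher and RPL24 lower in both knockdown-labelled libraries, and their efficiency changes were 0.21 and -0.14.

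Proteins around the tRNA sites, the peptidyl transferase centre and the L1 stalk (RPL3, RPL8, RPL10, RPL10A, RPL29 and RPL36A) had a median efficiency change of 0.47. It was -0.08 with the fractions exchanged, against -0.05 over all genes. After the GC and length trend was removed it was -0.28, against -0.41 over all genes. RPL29 was the only one past 2-fold (16.7% of the group), a share near the 12% of all genes that were higher. It was at 1845 and 1001 FPKM in knockdown-labelled polyribosome and input RNA, against 1523 and 2563 FPKM in control. Its change of 1.63 was -0.13 with the exchange and 0.45 after trend removal. RPL10, which lies close to the aminoacyl-tRNA and is one of the last proteins to join the subunit, had a change of 0.93, and RPL8, which lies beside the peptidyl transferase centre, one of 0.94. RPL8 was below 0 under both alternatives, at -0.75 and -0.56, and RPL10 was at -0.09 and 0.34. With the header's order RPL3 (-0.01), RPL36A (0.00) and RPL10A of the L1 stalk (-0.16) had nearly the same efficiency in both kinds of cells. With the exchange they were at -0.07, 0.09 and 0.32, and after trend removal at -0.53, -0.04 and -0.52.

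The 10 proteins of the exit tunnel and its rim had a median change of -0.03, which was 0.47 with the fractions exchanged and 0.18 after trend removal, and 8 of the 10 turned sign under each. RPL39, which lines the tunnel, was at 1749 and 942 FPKM in knockdown-labelled cells, against 918 and 1513 FPKM in control. Its change of 1.61 was -0.17 with the exchange and 1.72 after trend removal. RPL35 was at 7172 and 3647 FPKM in knockdown-labelled cells, against 2963 and 3048 FPKM in control, and its change of 1.02 was -0.93 with the fractions exchanged and -0.44 after the GC and length trend was removed. RPL22, a protein also known for binding viral small RNAs, had the opposite pattern, at 175 and 314 FPKM in knockdown-labelled polyribosome and input RNA, against 172 and 152 FPKM in control. Its polyribosome level was nearly equal in the 2 kinds of cells and its input level was higher in knockdown-labelled cells, giving a change of -1.02 that was 0.66 with the fractions exchanged and 0.21 after the trend was removed. RPL38 was at 0.78, and the other 6 of the group (RPL4, RPL17, RPL19, RPL23A, RPL26 and RPL31) lay between -0.18 and 0.05.

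The remaining 19 proteins of the shell of the subunit had a median change of 0.61. By 2-fold or more, 6 were higher and 3 lower, beside 12% and 30.1% of all genes. The median was -0.08 with the fractions exchanged and 0.48 after the GC and length trend was removed. After trend removal 5 were higher and 1 lower, beside 4.84% and 17.6% of all genes. RPL37A, a zinc-binding protein, was at 1708 and 647 FPKM in knockdown-labelled polyribosome and input RNA, against 785 and 1308 FPKM in control, a change of 2.13. RPL28 was at 2044 and 1099 FPKM in knockdown-labelled cells, against 714 and 1077 FPKM in control, a change of 1.49 that was 0.23 after trend removal. The inputs of RPL28 were almost equal, and its polyribosome values were not. The other 4 at least 2-fold higher were RPL37 (1.86), RPL13 (1.66), RPL36 (1.52) and RPL13A (1.37), of which RPL36 (-0.16) and RPL13A (0.96) were under 2-fold after trend removal and all 4 were below 0 with the exchange. RPL13A is known in interferon-treated cells for leaving the ribosome to silence messages. RPL7 was at 595 and 1554 FPKM in knockdown-labelled cells, against 1212 and 1075 FPKM in control, the lowest change of the 45 at -1.56. The authors' deposited table gives RPL7 a ratio of 0.38 in knockdown-labelled cells and 1.13 in control cells. RPL14 was at 415 and 940 FPKM in knockdown-labelled cells, against 1322 and 1210 FPKM in control, a change of -1.31. RPL6 was at 548 and 1251 FPKM in knockdown-labelled cells, against 1329 and 1289 FPKM in control, a change of -1.23. In all 3 the knockdown-labelled polyribosome value was the lowest of the 4 libraries, and with the fractions exchanged their changes were above 1, between 1.05 and 1.21. After the GC and length trend was removed RPL7 was at -0.70 and RPL6 at -0.81, both under 2-fold, and RPL14 was at -1.34. RPL9 and RPL27A had changes of 0.61 and 0.68. The other 8 lay between 0.16 (RPL21) and 0.93 (RPL18), and RPL18 was at -0.72 with the exchange and -0.30 after trend removal.

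**Figure D2:**
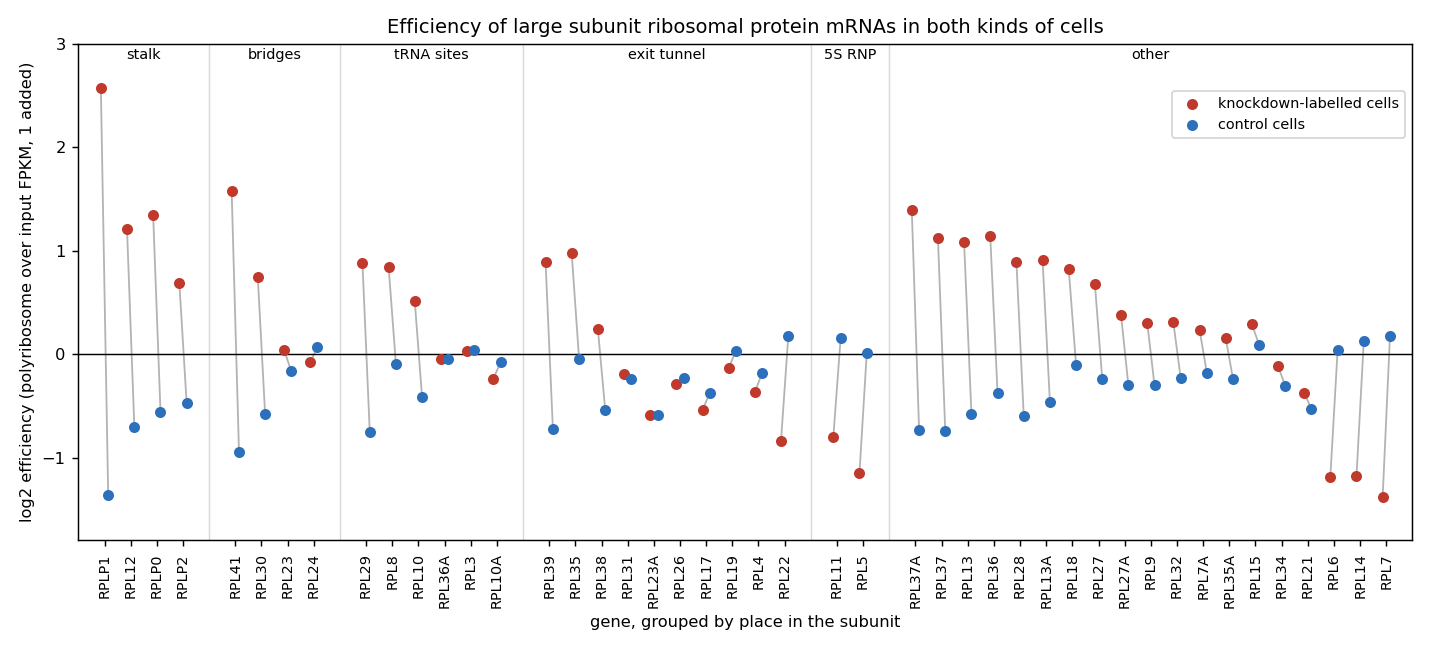
Log2 efficiency (polyribosome over input) of each member in knockdown-labelled and control cells, with genes grouped by role. The stalk genes lie between 0.69 and 2.57 in knockdown-labelled cells and between -1.36 and -0.47 in control cells, whereas RPL5 and RPL11 lie at -1.15 and -0.80 in knockdown-labelled cells and at 0.01 and 0.15 in control cells.

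Within knockdown-labelled cells the median member had a log2 efficiency of 0.29, against -0.02 over all genes. It was -0.29 with the fractions exchanged, against 0.02 over all genes. After the GC and length trend was removed it was -0.09, against -0.36 over all genes, so the members stayed above the typical gene. At least 2-fold enriched on polyribosomes were 8 members (17.8%; background 8.62%), and at least 2-fold depleted were 4 (8.89%; background 28.8%), RPL7, RPL6, RPL14 and RPL5. Within control cells the median member had a log2 efficiency of -0.24, against 0.03 over all genes, and the messages were thus on the input side in the median. RPLP1 alone passed 2-fold there, downward (2.22% of members; background 0.759%), and 0 members passed it upward (background 0%). The sizes of these values, which do not depend on the order of the columns, had medians of 0.69 in knockdown-labelled cells and 0.24 in control cells for the members, and of 0.75 and 0.19 for all genes.

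The 2 kinds of cells ranked the members in nearly opposite order. Efficiency was above 0 in knockdown-labelled cells and below 0 in control cells for 26 members, and the reverse held for 8. It was above 0 in both for 2 members and below 0 in both for 9. Above 0 in knockdown-labelled cells were 62.2% of members and 49.3% of all genes. In control cells the shares were 22.2% and 54.3%. The joint patterns were not counted over all genes. Across the 45 members the Pearson correlation of knockdown-labelled with control efficiency was -0.76 (Spearman -0.69), and with the fractions exchanged it was 0.76 (0.69). Over all 7379 genes the correlation was -0.05 (Spearman -0.12). Genes within a library share its depth and preparation and are not independent, so these values describe the 4 libraries only. The 32 small subunit genes had -0.69 (Spearman -0.78) and 47 genes of the mitochondrial large subunit -0.47 (-0.63), so an inverse order was also seen outside the 60S messages.

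**Figure D3:**
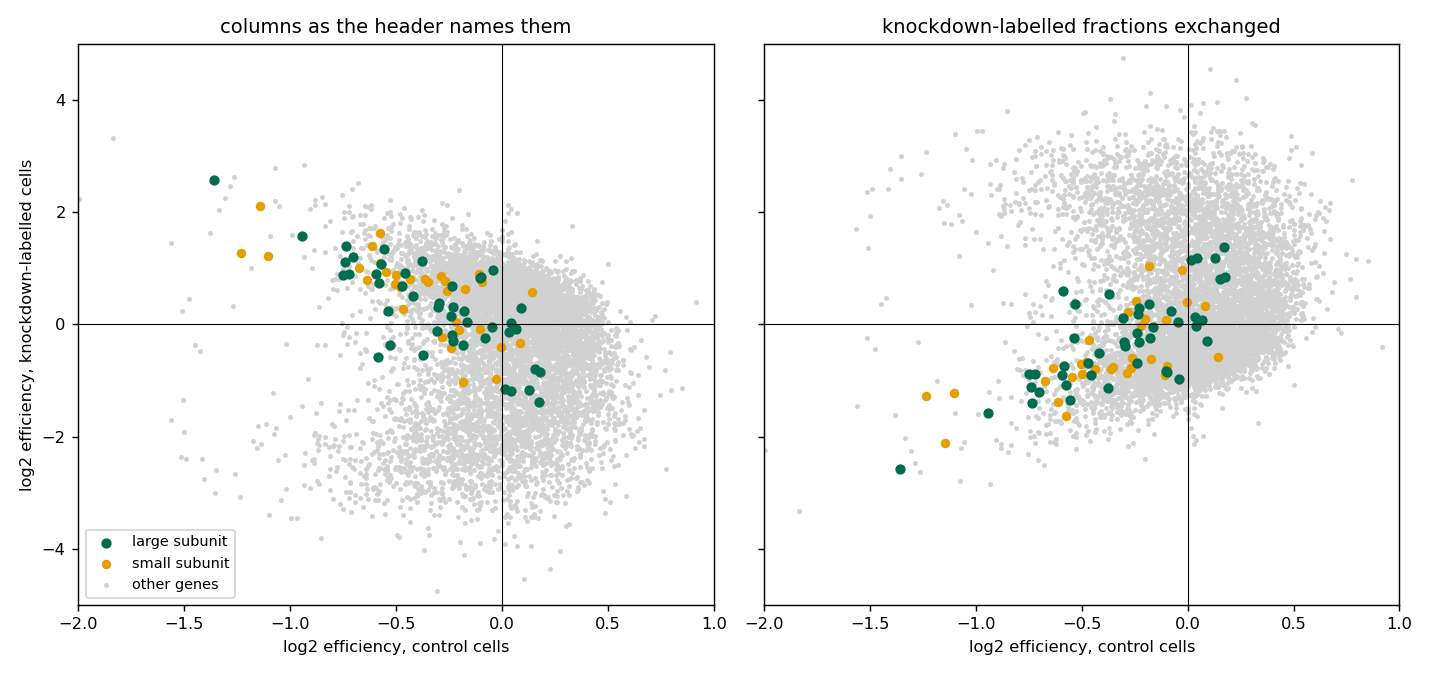
Log2 efficiency, knockdown-labelled cells on the y axis and control cells on the x axis, with the columns as in the header on the left and with the knockdown-labelled fractions exchanged on the right. Large subunit genes are green, small subunit genes orange and other genes grey, and 8 genes lie outside the drawn range of -2 to 1 on the control axis. The members slope downward on the left (Pearson -0.76, n = 45 genes) and upward on the right (0.76).

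Levels of the members were also compared directly between libraries. Knockdown-labelled polyribosome RNA correlated more with control input (Pearson 0.83 on the log2 scale over 45 members) than with control polyribosome RNA (0.72). Knockdown-labelled input correlated more with control polyribosome RNA (0.87) than with control input (0.81). Over all 7379 genes the first pair of values was 0.68 and 0.69, and the second pair 0.75 and 0.73. The 2 control fractions of the members correlated at 0.94 and the 2 knockdown-labelled fractions at 0.76. The cause of this crossed likeness was not tested.

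In input RNA the median member was lower in knockdown-labelled than in control cells, with a log2 difference of -0.34 against 0.01 over all genes. With the fractions exchanged it was -0.06, against -0.23 over all genes, so the members were then the higher ones. Of the 45, 36 were below 0, against 3639 of all 7379 genes. At least 2-fold lower were 7 members (15.6%; background 14.4%), led by RPLP1 at -2.02, RPL9 at -1.66 and RPL41 at -1.63, followed by RPL29, RPL17, RPL12 and RPL37A. RPL22 alone was at least 2-fold higher, at 1.05 (2.22%; background 13.2%). The share of members lower by 2-fold was therefore close to that of all genes.

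In polyribosome RNA the median member differed little, by 0.05 in knockdown-labelled against control cells, whereas the median of all genes was -0.28. The members' median was -0.13 with the fractions exchanged and -0.01 with the GC and length trend removed. Over all genes these were -0.0082 and -0.38. At least 2-fold higher were 7 members (15.6%; background 16.7%), RPLP1, RPL28, RPL37, RPLP0, RPL35, RPL37A and RPL13A. At least 2-fold lower were 7 as well (15.6%; background 32.9%), RPL14, RPL5, RPL17, RPL6, RPL11, RPL9 and RPL7. When all values were centred on the median gene, the counts were 16 higher and 3 lower, against 22.8% of all genes higher and 27% lower. Higher genes then made up 45.8% of the 2-fold calls over all genes, against 33.6% without centring. Of the 45 members, 19 were higher on polyribosomes and lower in input in knockdown-labelled cells, 6 were higher in both, 17 lower in both, and 3 lower on polyribosomes and higher in input. Higher on polyribosomes were 55.6% of members and 42.3% of all genes. In input the shares higher were 20% and 50.7%.

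A comparison that does not depend on the order of the knockdown-labelled columns was added after the data were seen. Both knockdown-labelled libraries lay below both control libraries for 15 members (33.3%; background 31.3%), and above both for 5 (11.1%; background 26.1%). RPL9 was at 887 and 718 FPKM in knockdown-labelled polyribosome and input RNA, against 1841 and 2268 FPKM in control, the largest drop with a mean log2 difference of -1.36 over the fractions. RPL17, whose loop lines the tunnel, was at 580 and 842 FPKM in knockdown-labelled cells, against 1521 and 1971 FPKM in control, a mean difference of -1.31. RPL14 followed at -1.02, and RPL5 at -0.90. RPL27A was at 227 and 174 FPKM in knockdown-labelled cells, against 268 and 329 FPKM in control. The 5 members above both controls were RPL22, RPL23, RPL28, RPL35 and RPL35A, with mean differences of 0.54 to 0.77. The stalk gene RPLP1 had a mean difference of only -0.05, so its large values cancelled between the fractions. The median mean difference was -0.11 over the members and -0.20 over all genes.

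With the knockdown-labelled fractions exchanged, 37 of the 45 members turned the sign of their efficiency change. The sign turns by construction wherever efficiency is larger in size in knockdown-labelled than in control cells. Median sizes were 0.69 and 0.24 for the members, and 0.75 and 0.19 for all genes. The share of all genes that turned was not counted. The exchanged changes of the members ran from -1.21 to 1.21, with 20 members above 0 and 25 below. At least 2-fold higher were 5 members, RPL7 (1.21), RPL23A (1.17), RPL6 (1.15), RPL5 (1.13) and RPL14 (1.05), and RPLP1 was the single member at least 2-fold lower. Of all genes, 27.8% were then at least 2-fold higher and 6.29% lower. Which direction holds depends on which line of column names is right, and RPLP1 and RPL7 stood at the opposite ends of the range in both orders.

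With the columns as in the header, GC content moved with the efficiency change. Transcripts of GENCODE 29 gave the members a median GC content of 49.6% (42.1% to 64.1%), against 52.5% over 7156 genes. The 15 members at least 2-fold higher had a median of 53.9% and the 5 at least 2-fold lower one of 45.0%. The correlation of GC content with the efficiency change was 0.33 over the 45 members (Spearman 0.36) and 0.76 over all 7156 genes (0.79). In control cells alone GC content and efficiency correlated at -0.08 over the members and 0.06 over all 7156 genes. In knockdown-labelled cells alone the correlations were 0.40 and 0.80, and both turn sign by construction with the fractions exchanged. The correlation of GC content with the exchanged efficiency change was not computed. The 3 members with the largest positive changes had GC contents below the median of all genes, with 47.7% in RPLP1, 49.5% in RPL41 and 44.7% in RPL37A. The RPL37A value rests on a long transcript model, of 3647 bases with 276 coding. After removal of a quadratic trend in GC content and log2 transcript length, the median change was 0.23 for the members and -0.41 for all genes, and 11 members were at least 2-fold higher and 1 lower, against 4.84% and 17.6% of all genes. RPLP1 was then at 4.25, RPL37A at 3.10, RPL37 at 2.97 and RPL41 at 2.06. RPL27A (1.22) and RPL35A (1.24) were then past 2-fold as well. The models of RPL27A, with 4916 bases and 444 coding, and of RPL37, with 7686 bases and 291 coding, are also long. The values of RPL27A, RPL37 and RPL37A therefore depend on the model chosen. RPL7 was at -0.70, and RPL14 was the lowest member at -1.34. The part of GC content in these differences was not tested.

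**Figure D4:**
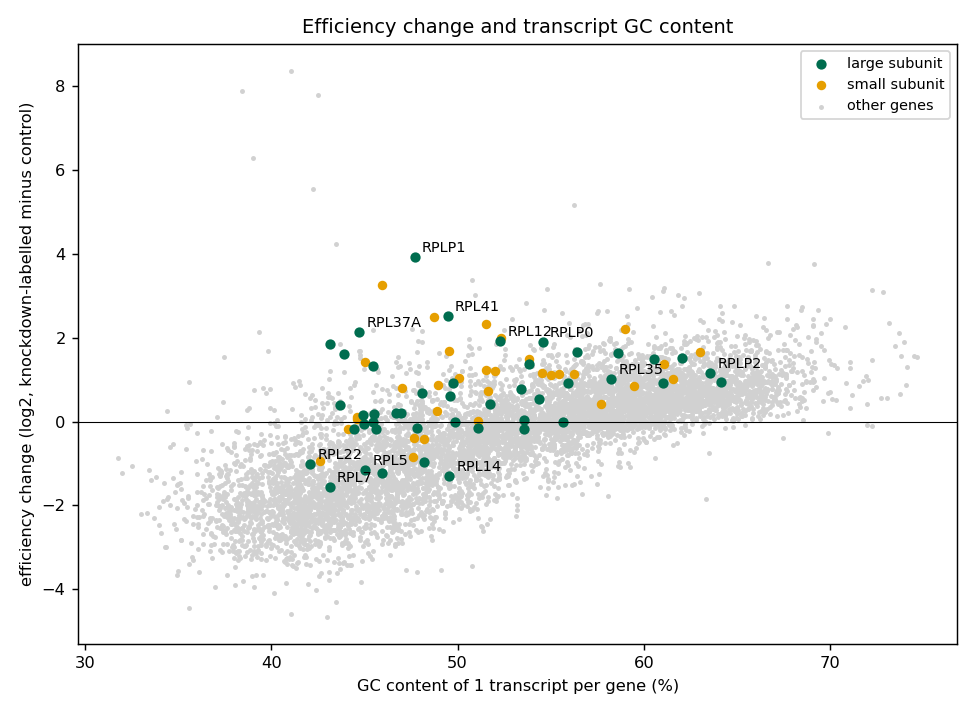
Change in log2 efficiency, knockdown-labelled minus control, against transcript GC content in percent, with large subunit genes in green, small subunit genes in orange and other genes in grey. With the columns as in the header, all genes slope upward (Pearson 0.76, n = 7156 genes) and the members less so (0.33, n = 45 genes). RPLP1, RPL41 and RPL37A stand high at GC contents of 44.7% to 49.5%.

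TOP sequences were common among the members. A C at the listed start followed by at least 4 further pyrimidines was searched on the gene's own strand, and it was found in 28 of the 38 members with a window (73.7%). It was found in 19 of 25 small subunit genes (76%), in 490 of 5789 kept genes (8.46%) and in 5.14% of all genes of the promoter table. The 28 had a median efficiency change of 0.93, with 13 at least 2-fold higher and 2 lower, and the other 10 one of -0.09, with 0 higher and 1 lower, beside 12% of all genes higher and 30.1% lower. The difference in medians was not kept under either alternative. With the fractions exchanged the medians were -0.11 and 0.05, with 1 higher in each, beside 27.8% of all genes. After the GC and length trend was removed they were 0.28 and 0.27, with 9 and 0 higher, beside 4.84% of all genes. The motif CTTTC, which can overlap the tract, lay on the same strand within the 30 bases in 20 members (52.6%), against 5.99% of kept genes. A sequence at a listed start is a description of the annotation, since start sites in these cells were not measured.

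Small nucleolar RNA genes lay inside 18 of the 45 members (40%), 39 such genes in all, against 1.96% of the kept genes. The hosts had a median efficiency change of 0.61 and the other 27 members one of 0.40, and these were -0.08 and 0.01 with the fractions exchanged. Pseudogenes named after a member existed for 44 of the 45, with a median of 10 and 714 in all. RPL23A had 91, RPL21 had 66 and RPL7 had 61, and RPL28 was the one with none. Reads from messages with near-identical pseudogenes can be shared, and how the authors treated such reads is not given in the sources used here, so levels of all 44 are uncertain to that extent. A coding gene on the same strand overlapped 5 members, with RPL17 and RPL36A each having a readthrough gene of their own. RPL17-C18orf32 was at 2.43 and 5.81 FPKM in knockdown-labelled polyribosome and input RNA, against 15.84 and 18.21 FPKM in control. RPL36A-HNRNPH2 was at 3.96 and 52.32 FPKM in knockdown-labelled cells, against 18.79 and 17.34 FPKM in control.

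The small subunit genes were set beside the members because the ribosome needs both in equal number. Their 32 messages had a median efficiency change of 1.08, with 18 at least 2-fold higher and 0 lower, beside 12% and 30.1% of all genes. With the fractions exchanged the median was -0.34, with 1 higher and 1 lower beside 27.8% and 6.29% of all genes, and 27 of the 32 turned sign. With the header's order the highest were RPS29 at 3.26 and RPS27 at 2.51, and the lowest RPS6 at -0.94 and RPS24 at -0.85. They took 11.1% and 7.63% of FPKM in knockdown-labelled polyribosome and input RNA, against 7.27% and 9.47% in control, the same order as the large subunit. No test of a difference between the subunits was possible.

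Other genes tied to the 60S subunit or to translation were described in the same way, beside the same 12% higher and 30.1% lower of all genes. With the fractions exchanged the shares of all genes were 27.8% higher and 6.29% lower. Of 33 kept factors of 60S assembly and export, 20 were at least 2-fold lower in efficiency and 0 higher, with a median change of -1.43. With the fractions exchanged 17 were higher and 1 lower, with a median of 1.14. In the header's order BRIX1 stood at -3.79 and NIFK at -3.67, against 0.24 for EIF6 and 0.42 for NLE1. Of 47 mitochondrial large subunit genes, 3 were higher and 15 lower (31.9%, close to the share of all genes), with a median of -0.25. The exchange gave the same median, -0.25, with 10 higher and 2 lower, neither above the share of all genes. Among 15 kept TOP messages that encode no ribosomal protein, 1 was higher (TPT1, 1.59) and 6 lower, with a median of -0.14 and the lowest value in NPM1 at -3.85. With the exchange 8 were higher and 0 lower, with a median of 1.36.

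Paralogs of members, outside the 45, were also measured. RPL39L was at 172 and 84.5 FPKM in knockdown-labelled polyribosome and input RNA and was listed at 0 in both control libraries. RPL22L1, the paralog of RPL22, was at 17.3 and 20.1 FPKM in knockdown-labelled cells, against 96.0 and 89.7 FPKM in control, whereas RPL22 itself was not lower in either knockdown-labelled library. RPL36AL was at 137 and 276 FPKM in knockdown-labelled cells, against 162 and 131 FPKM in control, a change of -1.30. RPL39L and RPL22L1 thus differed between the cells in both fractions, in opposite directions, whichever order of the columns is right.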

How the data were processed

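Poly(A) RNA of cells labelled KYSE-150 was measured in 4 libraries, 1 per group, and groups were taken from the sample titles. In the table the authors deposited, each gene has FPKM in every library and a ratio of polyribosome to input for each kind of cell. The ratio has 5 FPKM added to both values, as the deposited values show (largest gap 5e-10). Per the submitters' processing notes the builds are hg19 and GRCh37 and the aligner is TopHat. The sources used here do not give the counter, the annotation or the treatment of multi-mapped reads. Depth is unknown, since the lowest deposited FPKM above 0 is 0.01, so no interval was computed.

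Differences of log2(FPKM + 1) were computed in Python 3.11.15 with pandas 2.3.3 and NumPy 2.4.6, for genes averaging 5 FPKM or more. This scale understates changes of low genes. At least 2-fold was counted, and the calculation was tested on simulated data. GC content and length came from 1 transcript per gene in GENCODE 29, of lower-median length among those with the best annotation and longest coding sequence, a rule settled after member values were seen. Transcript lengths of members ran from 401 to 7686 bases, and the models of RPL37, RPL27A and RPL37A are long. Start windows came from RefSeq on GRCh38.p14, which is not the authors' build. Where several starts were listed, the one with a TOP sequence or the longest run was used.

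Values are given in full for the 5 highest and 5 lowest members by efficiency change, the 2 highest and lowest by each other comparison and by mean level, and all members of the stalk, 5S and bridge groups. RPL29, RPL39 and RPL17 and the paralogs named were given after their values were seen. The members and gene lists were chosen with earlier results of these data known. Alternatives were a pseudocount of 0.1 or 5 FPKM, a mean of at least 1 FPKM or no filter, centring, removal of a GC and length trend, and exchange of the knockdown-labelled fractions. A number stood where a gene name belongs in 26 rows, and the name was blank in 2. Some genes are not reported here.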

Additional observations from a re-analysis of the deposited data

Results flagged for a closer look

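Efficiency had opposite signs in the 2 kinds of cells in all 19 named members, and with 1 library a group the difference was not tested. The 19 include the 5 highest and 5 lowest members by efficiency change, a choice that favours opposite signs. Of all 45 members, 26 were above 0 in knockdown-labelled and below 0 in control cells, and 8 the reverse. Efficiency was above 0 in both for 2 members and below 0 in both for 9. These patterns were not counted over all genes. Polyribosome enrichment stood above 0 in knockdown-labelled cells and below 0 in control cells for RPLP1 (change 3.93), RPL41 (2.52), RPL37A (2.13), RPL12 (1.91), RPLP0 (1.90), RPL28 (1.49), RPL30 (1.33), RPLP2 (1.16), RPL35 (1.02), RPL27A (0.68), RPL9 (0.61) and RPL23 (0.21). It stood below 0 in knockdown-labelled cells and above 0 in control cells for RPL7 (-1.56), RPL14 (-1.31), RPL6 (-1.23), RPL5 (-1.16), RPL22 (-1.02), RPL11 (-0.96) and RPL24 (-0.14). All 19 rest on the order of the knockdown-labelled columns in the header.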

How the results depend on the processing

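A pseudocount of 0.1 or 5 FPKM, a mean of at least 1 FPKM and no filter kept all medians and counts of the members near those reported. Centring on the median gene gave medians of 0.66 for efficiency change, 0.31 and -0.27 for efficiency in knockdown-labelled and control cells, -0.35 for input and 0.33 for polyribosome RNA. On polyribosomes 16 members were then at least 2-fold higher and 3 lower, beside 22.8% and 27% of all genes. Removing the GC and length trend gave medians of 0.23, -0.091, -0.31, -0.28 and -0.013 in the same order. Over all genes these were -0.41, -0.36, 0.029, 0.016 and -0.38. The counts at least 2-fold were then 1 lower in efficiency change, beside 17.6% of all genes. In knockdown-labelled efficiency they were 5 higher and 2 lower, beside 2.71% and 14.3%. They were 0 higher in input, beside 12.9%, and 2 lower on polyribosomes, beside 26.3%. Of 19 named members 3 turned sign, RPL22 (0.21), RPL35 (-0.44) and RPLP2 (-0.56). Exchanging the knockdown-labelled fractions gave medians of -0.069 for efficiency change, -0.29 for knockdown-labelled efficiency, -0.056 for input and -0.13 for polyribosome RNA. Over all genes these were -0.049, 0.018, -0.23 and -0.0082. The counts were then 5 higher and 1 lower in efficiency change, beside 27.8% and 6.29% of all genes. In knockdown-labelled efficiency they were 4 higher and 8 lower, beside 28.8% and 8.62%. On polyribosomes they were 0 higher and 1 lower, beside 12.7% and 14%. Of the 19, 18 turned sign in efficiency change, all but RPL23: RPLP1 (-1.21), RPL41 (-0.64), RPL37A (-0.66), RPL12 (-0.51), RPLP0 (-0.78), RPL7 (1.21), RPL14 (1.05), RPL6 (1.15), RPL5 (1.13), RPL22 (0.66), RPL28 (-0.30), RPL35 (-0.93), RPLP2 (-0.22), RPL30 (-0.16), RPL11 (0.65), RPL27A (-0.082), RPL9 (-0.0047) and RPL24 (0.011). The exchange turns the sign of knockdown-labelled efficiency by construction. It also turns that of the efficiency change wherever the knockdown-labelled efficiency is larger in size than the control one. The cause of the shifts under the other settings was not tested.

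No paired analysis was possible because each group has 1 library and the labels give no replicate numbers. Leaving out a library would leave a group with none. The depth is unknown, and counting error is therefore not given for any value.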

Other observations

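RPL23A had almost the same level in both kinds of cells, at 550.79 and 827.94 FPKM in knockdown-labelled polyribosome and input RNA, against 550.75 and 827.82 FPKM in control. The values differed by 0.00726% in polyribosome RNA and 0.0145% in input. Within a tolerance of 0.1% in both fractions, 2 of the 7379 genes were equal, RPL23A and PRRC2B. RPL23A is also the member with the most named pseudogenes, 91.

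Across the 45 members the efficiency change had a Pearson correlation of 0.41 with log2 mean FPKM (Spearman 0.39). With the number of pseudogenes it was -0.29 (Spearman -0.32). The mean level comes from the same 4 libraries as the change, so the first value is not free of coupling. Knockdown-labelled efficiency alone had 0.43 and -0.39, which turn sign with the fractions exchanged, and control efficiency had -0.27 and -0.01. These correlations were not computed over all genes. Genes of a library are not independent, and these are descriptions. Transcript length had a correlation of 0.05 with the efficiency change (Spearman -0.05).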
